A study of Mus musculus with 18 samples.

Results

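The messenger RNAs of 10 cardiac transcription factors were followed in the mouse left ventricle through the first 72 h of acute myocardial infarction (AMI). The genes were Nkx2-5, Gata4, Gata6, Tbx5, Tbx20, Hand2, Mef2a, Mef2c, Mef2d and Srf, picked by symbol as transcription factors of cardiomyocyte identity from a table of 24419 genes. All 10 were in the table, and all 10 were among the 13333 genes that reached an FPKM of 1 in at least 1 mouse. FPKM counts sequenced fragments relative to transcript length and library size, so levels of different genes can be set side by side per length. The study asked how the tissue changes in the early stages of AMI. The animals were 18 male C57BL/6 mice of 8 weeks, all anaesthetised with sodium pentobarbital, and the labels name no genetic change and no further treatment. The groups of 3 mice each were a sham group, called Control in the labels, and AMI groups taken 10 min, 1 h, 6 h, 24 h and 72 h after the left anterior descending coronary artery had been tied off. What was done to the sham mice besides anaesthesia is not given in the sources used here. The infarcted myocardium was taken whole, so each library holds the RNA of every cell type in it, and polyadenylated RNA was sequenced.

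The heart muscle cell keeps its identity through a small set of DNA-binding proteins that act together on the same regulatory sequences. NKX2-5 is a homeobox protein, GATA4 and GATA6 are zinc finger proteins, TBX5 and TBX20 belong to the T-box family, and HAND2 is a basic helix-loop-helix protein that binds E-boxes. MEF2A, MEF2C and MEF2D and the serum response factor SRF are MADS-box proteins, which bind A/T-rich elements: the MEF2 box and the CArG box. Together they switch on genes of the sarcomere, of calcium handling and of the natriuretic peptides in the developing heart, and most of them stay expressed in the adult ventricle.

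The summed FPKM of a library lay between 542418 and 600467 and the number of genes above 0 between 15926 and 17287. Relative depth, read from the smallest values and set against the first sham mouse, was 0.812 to 1.32. Among 12 cardiomyocyte markers none was at 0, and their summed level fell to 0.357 of sham at 72 h, while 10 leukocyte markers rose to 22.9 times and 8 fibroblast markers to 9.54 times sham. One library stood apart: the first 6 h mouse had the atrial genes Myl4 at 63.0, Myl7 at 18.7, Sln at 12.5 and Bmp10 at 2.48 FPKM, where the other 6 h mice had Myl4 at 1.72 and 1.91, Myl7 at 0 and 0.0193, and Sln and Bmp10 at 0. The members' calls at 6 h are therefore given with and without that mouse. Across all genes tested, the median log2 difference from sham was 0.29 at 72 h, which median-of-ratios scaling brought to 0.04 and quantile normalization to -0.10, and at 24 h it was 0.13 as deposited.

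**Figure D1:**
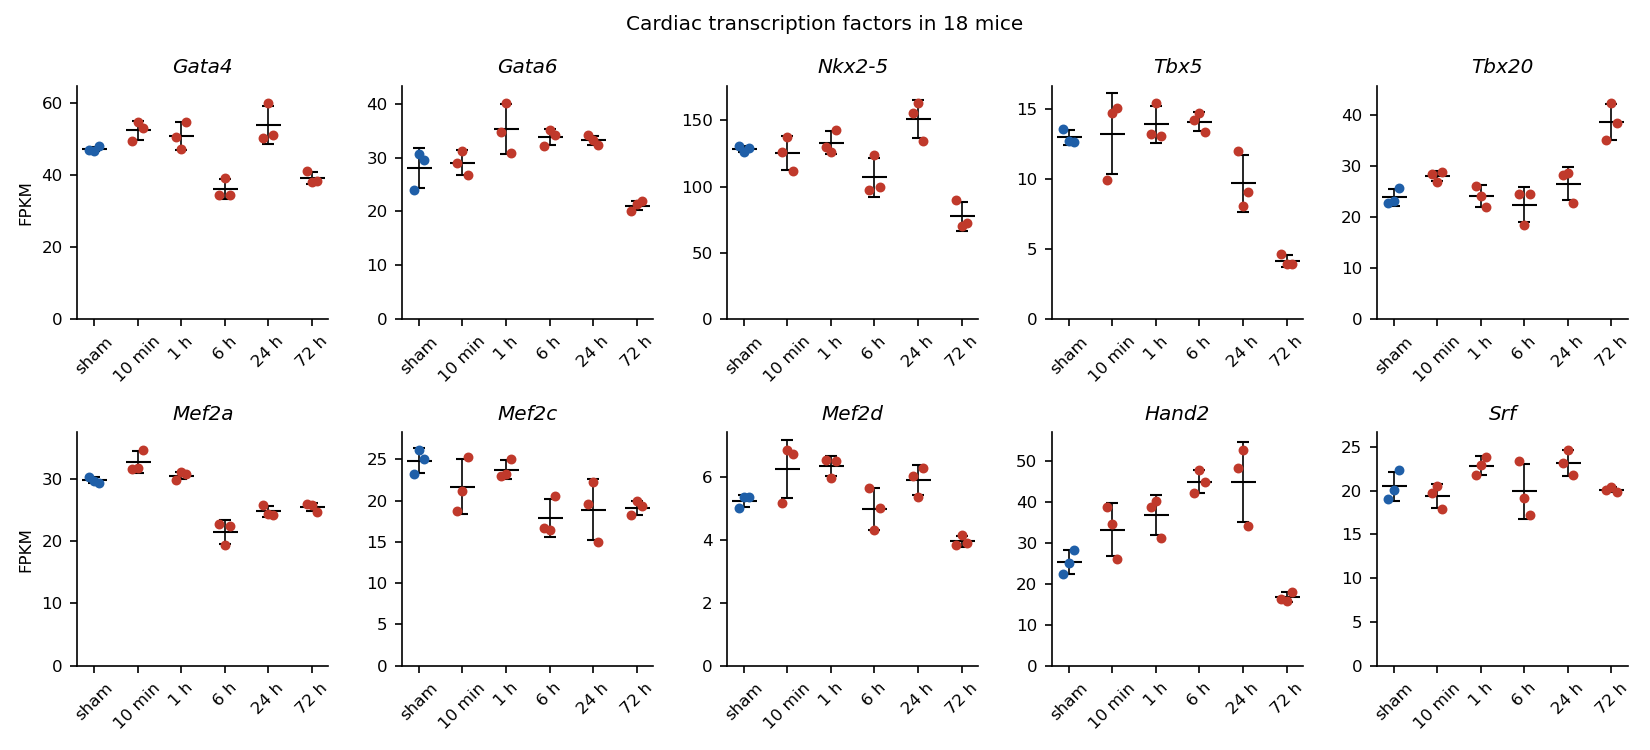
FPKM of the 10 transcription factor genes in every mouse (blue points sham, red points AMI, 3 mice a group, with bars for the mean ± SD), for sham and for 10 min, 1 h, 6 h, 24 h and 72 h of AMI. Tbx5 and Nkx2-5 sit below all sham mice at 72 h, Tbx20 above them, and Hand2 is high at 6 h and 24 h and low at 72 h.

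In the sham ventricle the 10 genes spanned a wide range of levels. Nkx2-5 was the highest, at 129 ± 2.23 FPKM (SD, n = 3), followed by Gata4 at 47.3 ± 0.662. Mef2a, Gata6, Hand2, Mef2c and Tbx20 came next with means between 23.9 and 29.7 FPKM, and each of these overlapped its neighbour in the order over the 3 mice. Srf at 20.5 ± 1.67, Tbx5 at 13.0 ± 0.509 and Mef2d at 5.24 ± 0.192 FPKM closed the list, each clear of the gene before it. At 6 h Hand2 stood second after Nkx2-5, clear of Gata4 and Gata6, whose values overlapped, and at 24 h Gata4, Hand2 and Gata6 followed Nkx2-5, each overlapping the next. At both times Tbx20, Mef2a, Srf and Mef2c came after these with overlapping neighbours, and Tbx5 and then Mef2d closed the list. At 72 h the order was Nkx2-5, then Gata4 and Tbx20 with overlapping values, then Mef2a, then Gata6, Srf and Mef2c with each overlapping the next, then Hand2, and then Tbx5 and Mef2d with overlapping values. The sum over the 10 genes was 346 ± 9.20 FPKM in sham, 392.01 ± 36.6 at 24 h and 266 ± 8.18 at 72 h.

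The comparison with sham gave calls for these genes at 6 h, 24 h and 72 h. A gene was called where limma's test on log2(FPKM + 1) gave an adjusted p under 0.05 over all genes tested, and every log2 difference printed for a gene is on that scale. At 10 min and at 1 h limma called 0 of 10, beside 0.346% and 0.722% of all genes, and 3 of 10 had an unadjusted p under 0.05 at each of these times, beside 14.7% and 12.6% of all genes. At 6 h 1 gene was called higher and 3 lower, beside 11.6% of all genes higher and 16.8% lower. At 24 h 1 was called higher and 1 lower, beside 26.2% and 11.4%. At 72 h 8 of 10 were called lower, beside 24.2% of all genes, and 1 was called higher, beside 53.1%. The values of the 3 AMI and the 3 sham mice did not overlap for 3, 3, 6, 8 and 9 of the 10 genes in the order of the times, beside 20.4%, 18.3%, 48.8%, 58.3% and 80.6% of all genes. The median log2 difference of the 10 at 72 h was -0.35, against 0.29 over all genes. In bulk tissue fewer cells of a type and less RNA per cell cannot be told apart, nor can the cell types that carry a transcript. The 12 of 12 cardiomyocyte markers called lower at 72 h stand beside these calls. After quantile normalization 10 of 11 of the markers were called lower, beside 5709 of all genes. Their part in the result was not tested.

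**Figure D2:**
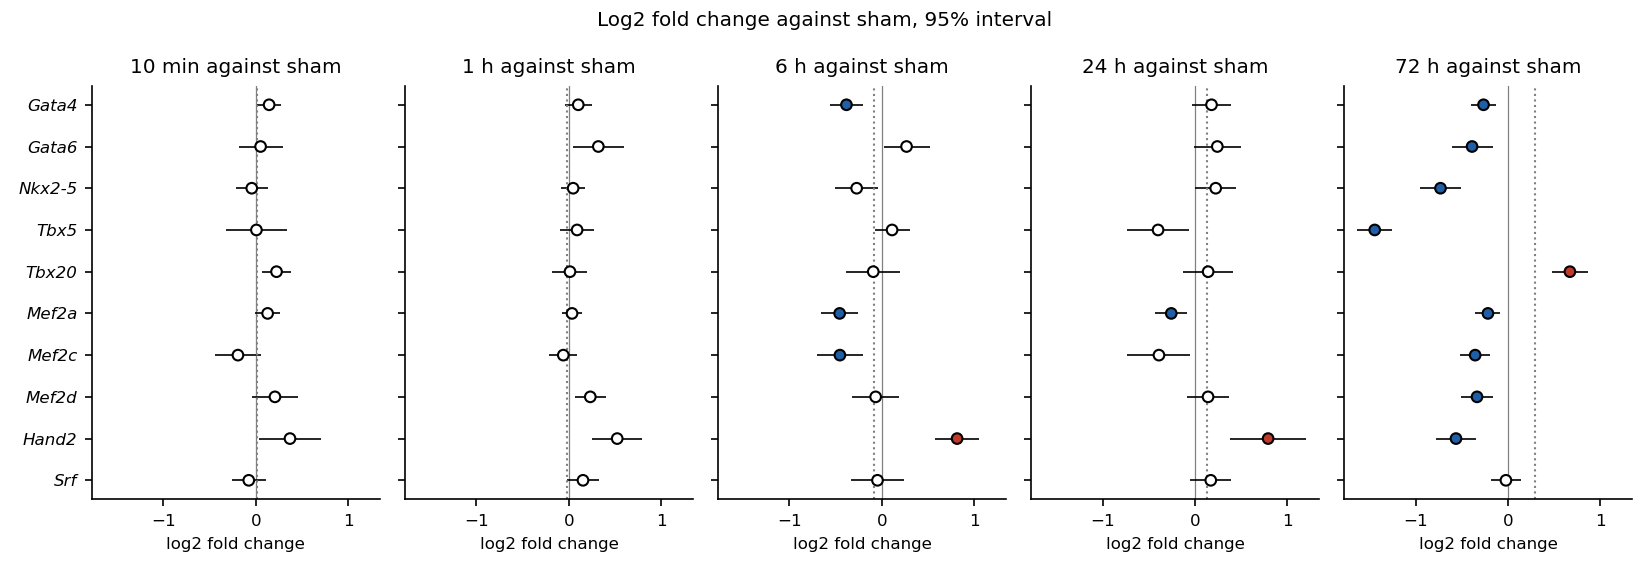
Log2 difference from sham on the log2(FPKM + 1) scale for each of the 10 genes at each time of AMI, with the 95% interval of the limma fit as bars (3 AMI against 3 sham mice), where filled red points were called higher, filled blue points lower, open points were not called, and the dotted line is the median of all genes tested. Tbx5 is lowest at 72 h with -1.44, Tbx20 is the gene above 0 there with 0.67, and Hand2 is at 0.81 at 6 h, at 0.79 at 24 h and at -0.56 at 72 h.

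At 10 min and at 1 h 3 of the 10 lay clear of sham, beside 20.4% and 18.3% of all genes, and 0 were called. At 10 min the 3 genes without overlap all lay above sham. They were Gata4 at 49.5, 54.6 and 53.2 FPKM, Mef2a at 31.5, 31.7 and 34.6, and Tbx20 at 28.5, 26.9 and 28.8, where the highest sham mice had 48.1, 30.3 and 25.8. Their log2 differences were small, 0.22 for Tbx20 with an adjusted p of 0.205 and 0.14 for Gata4 with 0.288. The largest difference of the 10 at 10 min was that of Hand2, which overlapped sham, at 0.37 with an adjusted p of 0.303. At 1 h the 3 genes without overlap, again above sham, were Hand2, Gata6 at 34.8, 40.1 and 30.9 FPKM, and Mef2d at 6.52, 5.97 and 6.51. Gata6 differed by 0.32 with an adjusted p of 0.346 and Mef2d by 0.23 with 0.270.

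Tbx5, which with GATA4 and NKX2-5 drives chamber muscle genes, fell most among the 10 at 72 h. The gene lies on the plus strand at chr5:119832668-119885219 (mm10, as for all positions here, from GENCODE release M21). Its FPKM was 13.6, 12.7 and 12.7 in the sham mice and 4.64, 3.91 and 3.92 in the 72 h mice, so that each 72 h mouse lay at less than each sham mouse. The ratio of the means was 0.320, and the log2 difference was -1.44 ± 0.08 (SE) with an adjusted p of 8.14e-07. Up to 6 h Tbx5 stayed near sham, with 14.2, 14.7 and 13.4 FPKM at 6 h. At 24 h it was 11.997, 8.09 and 9.08 FPKM, all under the sham mice, with a log2 difference of -0.40 and an adjusted p of 0.0609. That difference was called under both other scalings, with -0.53 after median-of-ratios scaling and -0.59 after quantile normalization. From 24 h to 72 h Tbx5 fell again, by 1.04 on the log2 scale, with an adjusted p of 0.00168.

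Tbx20, the other T-box gene of the 10, moved the opposite way and was the 1 gene of the 10 called higher at 72 h. It lies on the minus strand at chr9:24718138-24774303. Its FPKM was 22.8, 23.1 and 25.8 in sham and 35.2, 42.4 and 38.5 at 72 h, with no overlap. The mean rose 1.62 times, a log2 difference of 0.67 ± 0.09 with an adjusted p of 0.000108. It remained called after median-of-ratios scaling, with a log2 difference of 0.37, and after quantile normalization, with 0.42. At 6 h and 24 h it was 22.5 ± 3.50 and 26.6 ± 3.29 FPKM, neither of them called against sham. The rise from 24 h to 72 h was 0.53 with an adjusted p of 0.0129, and it was not called after median-of-ratios scaling, where the adjusted p was 0.0554, or without the second or the third 72 h mouse, where it was 0.0538 and 0.0510. Within a mouse, the FPKM of Tbx20 divided by that of Tbx5 was 1.68 to 2.04 in sham and 7.59 to 10.8 at 72 h. This ratio was picked after the values had been seen and is given as a description. Which cell types carried the Tbx20 rise was not tested. At 72 h the summed fibroblast and leukocyte markers were 9.54 and 22.9 times sham.

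Nkx2-5, the most abundant of the 10 in every group, was called lower at 72 h. The gene is on the minus strand at chr17:26838664-26845009. It was at 130.3, 126 and 129 FPKM in the sham mice and at 90.1, 70.4 and 72.2 at 72 h. The lowest sham mouse was well above the highest 72 h mouse, and the ratio of means was 0.603 with a log2 difference of -0.73 ± 0.10 and an adjusted p of 0.000131. At 6 h it was 97.1, 124 and 100.03 FPKM, a log2 difference of -0.27 with an adjusted p of 0.0777. Nkx2-5 was called lower there in 1 of the 6 fits without 1 mouse, with an adjusted p of 0.0094. At 24 h it was 155, 163 and 135 FPKM, above every sham mouse, a log2 difference of 0.22 with an adjusted p of 0.0932. It was called higher there in 1 of the 6 fits without 1 mouse, with an adjusted p of 0.0131. Between 24 h and 72 h the level fell by 0.96 on the log2 scale, with an adjusted p of 0.00137.

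Gata4, a partner of both NKX2-5 and TBX5, was lower at 6 h and again at 72 h. It lies on the minus strand at chr14:63198922-63271692. The sham mice held 47.0, 46.8 and 48.1 FPKM, a narrow spread, and the 6 h mice 34.4, 39.3 and 34.5. The log2 difference at 6 h was -0.38 ± 0.08 with an adjusted p of 0.0125, and leaving out the first 6 h mouse gave -0.35 with an adjusted p of 0.0250. It was not called after median-of-ratios scaling or without any 1 of the sham mice, with an adjusted p of up to 0.0602. At 24 h the mice were back at 50.3, 60.0 and 51.3 FPKM, a level not called against sham, and at 72 h at 41.1, 38.1 and 38.4. The 72 h value was 0.829 of sham, a log2 difference of -0.27 ± 0.06 with an adjusted p of 0.00337. Gata4 is the gene of the 10 whose change from 1 h to 6 h, from 6 h to 24 h and from 24 h to 72 h was called each time, at -0.49, 0.56 and -0.44. The step from 1 h to 6 h was not called without the first or the third 1 h mouse, with an adjusted p of up to 0.0554. The step from 6 h to 24 h was lost in 7 of 14 alternatives, with an adjusted p of up to 0.145. These were both other scalings, the replicate block, and the fits without any 1 of the 6 h mice or without the second 24 h mouse. The step from 24 h to 72 h was lost without the third 72 h mouse, with an adjusted p of 0.0585.

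Gata6, which overlaps with GATA4 in the genes it drives, did not share the dip at 6 h. It was at 32.2 to 35.1 FPKM in the 6 h mice, above the 23.9 to 30.7 of the sham mice, with a log2 difference of 0.27 and an adjusted p of 0.0982. At 1 h and 24 h it was 35.3 ± 4.59 and 33.2 ± 0.883 FPKM, neither called against sham. At 72 h it was 20.1, 21.3 and 21.8 FPKM against 23.9, 30.7 and 29.6 in sham, with a log2 difference of -0.39 ± 0.10 and an adjusted p of 0.00559. All 72 h mice lay below all sham mice. As a description, the FPKM of Gata6 divided by that of Gata4 was 0.593 ± 0.0761 in sham, 0.939 ± 0.0479 at 6 h and 0.539 ± 0.0432 at 72 h.

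Hand2, known from the right ventricle and the outflow tract of the embryo, rose first and then fell. The sham mice held 22.4, 25.1 and 28.2 FPKM. At 10 min the values were 38.9, 34.6 and 26.2, overlapping sham, with a log2 difference of 0.37 and an adjusted p of 0.303. At 1 h the values were 38.9, 40.3 and 31.2, all above sham, with a log2 difference of 0.52 and an adjusted p of 0.145. At 6 h they were 42.3, 47.7 and 44.99, a rise of 0.81 ± 0.10 on the log2 scale with an adjusted p of 0.00234, and leaving out the first 6 h mouse gave a rise of 0.86 with an adjusted p of 0.00331. At 24 h they were 48.2, 52.7 and 34.0, a rise of 0.79 ± 0.17 with an adjusted p of 0.0152, which was lost without the first or the second sham mouse, with adjusted p of 0.0647 and 0.0577. The third 24 h mouse, lowest in Hand2, also had the fewest cardiomyocyte marker transcripts of its group, a sum of 45860 FPKM against 57278 and 59059, and the most leukocyte marker transcripts, 1711 against 551 and 681. Within the 24 h group all of the 10 genes except Gata4, Tbx5 and Mef2d were lowest in that mouse. Whether the marker sums bear on the Hand2 value or on the other genes was not tested. At 72 h Hand2 was at 16.2, 15.8 and 18.1 FPKM, below every sham mouse, with a log2 difference of -0.56 ± 0.09 and an adjusted p of 0.000603. The step from 24 h to 72 h was -1.35 ± 0.17 with an adjusted p of 0.000830, the lowest of the 10 in that comparison.

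The Hand2 promoter is shown because Hand2 was the gene of the 10 called against sham in both directions, higher at 6 h and 24 h and lower at 72 h, and because the window holds letters bound by 2 families among the 10. Hand2 lies on the plus strand of chromosome 8 in mm10 at chr8:57320983-57324633 and has 2 exons. The stretch below, from RefSeq on GRCm38.p6, is chr8:57320733-57320826 on the plus strand, from 250 to 157 bases before the start of the transcript, with an E-box (CATCTG) and GATA letters in capitals: TGATAA on the strand shown, and TTATCT, which reads AGATAA on the other strand.
Hand2: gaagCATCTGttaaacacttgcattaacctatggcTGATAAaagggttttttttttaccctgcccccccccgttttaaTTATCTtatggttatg
Among 32851 promoter windows of the same 250 bases, searched on both strands, 14.4% held the E-box and 26.5% held AGATAA or AGATAG or TGATAA or TGATAG. A match is a description of letters and not evidence of binding.

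The MEF2 genes, whose proteins drive muscle structural genes, were lower at 72 h in all 3 cases and by less than Tbx5 or Nkx2-5. They are unlinked, with Mef2a at chr7:67231163-67372858, Mef2c at chr13:83504034-83667080 and Mef2d at chr3:88142372-88172086. Mef2a fell from 30.3, 29.6 and 29.3 FPKM in sham to 22.7, 19.3 and 22.4 at 6 h, a log2 difference of -0.46 ± 0.09 with an adjusted p of 0.00952, and it was called in the same direction without any 1 of the mice. At 24 h it was at 24.2 to 25.7 FPKM, a log2 difference of -0.26 with an adjusted p of 0.0336, which was lost without any 1 of the sham mice and without the second 24 h mouse, with an adjusted p of up to 0.129. At 72 h it was at 24.7 to 25.96 FPKM, a log2 difference of -0.22 ± 0.06 with an adjusted p of 0.00852. Mef2a thus lay below every sham mouse in all 3 groups from 6 h on.

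Mef2c, the form needed in the embryonic heart tube, went from 23.2 to 26.2 FPKM in sham to 16.4 to 20.5 at 6 h and 18.2 to 19.9 at 72 h. Its log2 difference was -0.45 ± 0.11 at 6 h with an adjusted p of 0.0203 and -0.36 ± 0.07 at 72 h with an adjusted p of 0.00162. Leaving out the first 6 h mouse gave -0.41 with an adjusted p of 0.0454 at 6 h. The 6 h call was lost without any 1 of the sham mice, with an adjusted p of up to 0.0798. At 24 h Mef2c was at 15.0 to 22.2 FPKM and was not called, with a log2 difference of -0.39 and an adjusted p of 0.0699, but it was called after both other scalings, with -0.53 and -0.56. Mef2d, the least abundant of the 10 in every group, was at 5.02 to 5.35 FPKM in sham and at 3.82 to 4.13 at 72 h, a log2 difference of -0.34 ± 0.07 with an adjusted p of 0.00292. It was not called at any earlier time.

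The Mef2d value carries a limit of its own. An antisense gene, 1700113A16Rik, shares 531 exonic bases with Mef2d, 8.87% of the Mef2d exons, and the library kit named in the labels does not mark strand, so reads of the shared bases cannot be told apart. That gene was at 17.0 ± 1.62 FPKM in sham and 7.73 ± 1.59 at 72 h, a log2 difference of -1.05 with an adjusted p of 0.000119. Hand2 shares 461 exonic bases, 19.6% of its exons, with the antisense transcript Hand2os1, which was not analysed here. Gata6 shares 1.43% of its exons with 1010001N08Rik, whose log2 difference at 72 h was -0.68, and Mef2a shares 2.06% with Lysmd4, whose log2 difference was -0.41, both called lower.

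Srf, which ties growth signals and the actin cytoskeleton to transcription, was the gene of the 10 whose level at 72 h was closest to sham. Its FPKM was 19.0, 20.1 and 22.3 in sham and 20.1, 20.4 and 19.8 at 72 h, and the groups overlapped. The log2 difference was -0.02 with a 95% interval from -0.19 to 0.14 and an adjusted p of 0.788. This depended on the scaling. After median-of-ratios scaling the difference was -0.32 with an adjusted p of 0.00241, and after quantile normalization -0.35 with 0.00152. This brings the count of genes called lower at 72 h to 9 of 10 under both. The calls over all genes rose too, from 3226 lower as deposited to 4752 after median-of-ratios scaling and 5709 after quantile normalization. At 24 h Srf was at 21.7 to 24.7 FPKM and at 6 h at 17.2 to 23.4, neither called against sham.

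The Srf promoter is shown because SRF binds CArG boxes and its own promoter holds such boxes close to the start and because a list of SRF targets is described further on. Srf lies on the minus strand of chromosome 17 in mm10 at chr17:46548329-46556175 and has 7 exons. The stretch below is chr17:46556205-46556254 on the minus strand, from RefSeq on GRCm38.p6, from 92 to 43 bases before the start of the transcript, with its CArG boxes in capitals.
Srf: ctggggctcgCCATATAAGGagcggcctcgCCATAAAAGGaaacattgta
A CArG box stood in 1.47% of the 32851 windows of 250 bases, and among 9 windows of the 7 genes of the 10 that matched in RefSeq it stood in that of Srf only. The E-box stood in those of Hand2 and Mef2c. The letters of NKX2-5 (TCAAGTG or TTAAGTG), of T-box proteins (GGTGTGA or GGTGTTA) and the MEF2 box stood in 0 of 9, where 4.67%, 4.62% and 2.92% of all windows held them. The promoters of Gata4, Gata6 and Tbx5 were not analysed here.

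From one time to the next, the 10 genes were called most often between 24 h and 72 h. There 6 of 10 were called lower, beside 13.5% of all genes, and 1 was called higher, beside 29.7%. The 6 were Hand2, Tbx5, Nkx2-5, Gata6 at -0.63, Mef2d at -0.48 and Gata4. Between 1 h and 6 h 3 of 10 were called lower, beside 11.2%, and they were Gata4 at -0.49, Mef2a at -0.49 and Mef2c at -0.39. The Mef2a call was lost without the second 1 h mouse, with an adjusted p of 0.0621. The Mef2c call, with an adjusted p of 0.0395, held in 6 of 14 alternatives. It was lost after median-of-ratios scaling, with no filter, with the replicate block, and without any 1 of the 1 h mice or the first or second 6 h mouse, with an adjusted p of up to 0.126. Between 6 h and 24 h Gata4 was the 1 gene called higher, beside 12.5%. Between 10 min and 1 h limma called 0 of 10, beside 0.602% of all genes in either direction, with 3 of 10 at an unadjusted p under 0.05, beside 13.1% of all genes.

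**Figure D3:**
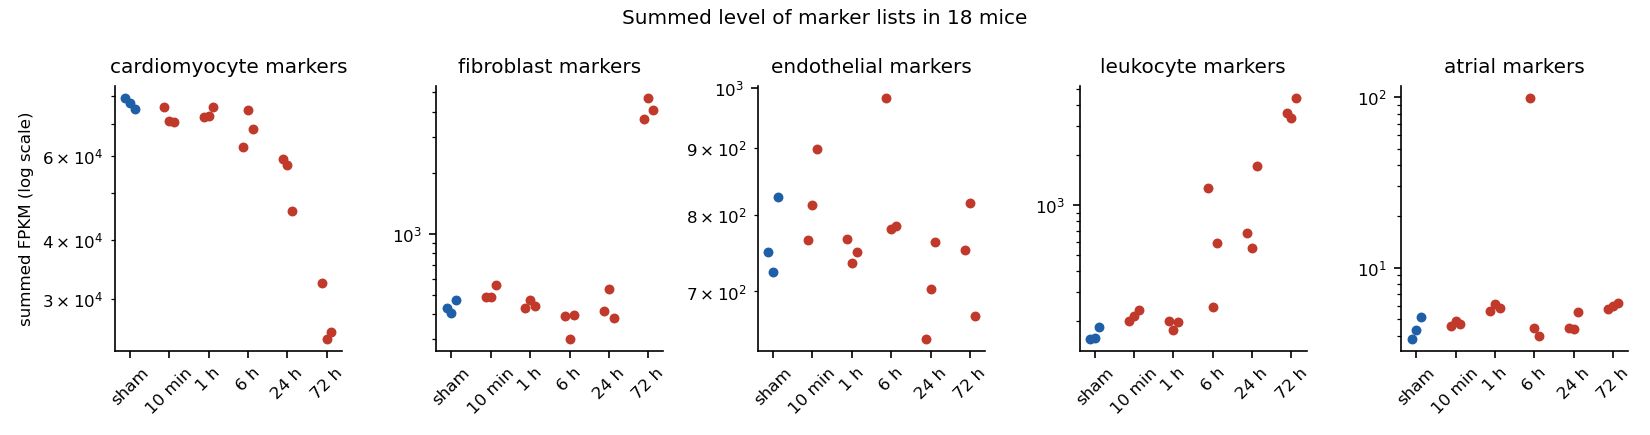
Summed FPKM of the cardiomyocyte, fibroblast, endothelial, leukocyte and atrial markers in every mouse, each on its own log axis, for sham and the 5 times of AMI (blue points sham, red points AMI, 3 mice a group). Cardiomyocyte markers fall to 0.357 of sham at 72 h, fibroblast and leukocyte markers rise to 9.54 and 22.9 times sham, and the atrial markers stand out in 1 mouse of the 6 h group.

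The content of the tissue moved at the same times. The summed FPKM of the 12 cardiomyocyte markers ran from 75205 to 79286 in sham, from 62601 to 74977 at 6 h, from 45860 to 59059 at 24 h and from 24797 to 32468 at 72 h. The number of these markers called lower was 2 at 6 h, 8 at 24 h and 12 at 72 h, beside 16.8%, 11.4% and 24.2% of all genes. After median-of-ratios scaling it was 1, 8 and 12, beside 1513, 2317 and 4752 of all genes. After quantile normalization it was 1, 4 and 10 of 11 tested, beside 2125, 2692 and 5709 of all genes. Leukocyte marker sums were 156 to 183 in sham, 242 to 1269 at 6 h, 551 to 1711 at 24 h and 3373 to 4424 at 72 h, with 4, 10 and 10 of 10 markers called higher, beside 11.6%, 26.2% and 53.1% of all genes. Fibroblast marker sums were 407 to 473 in sham and 3707 to 4686 at 72 h, with 8 of 8 called higher. For the sums at 72 h that did not overlap with sham the exact two-sided permutation test gave p = 0.1, the smallest that 3 against 3 mice allow. Smooth muscle and pericyte markers had 3 called higher and 4 lower of 8 at 72 h, endothelial markers 1 higher and 4 lower of 8, epicardial and mesothelial markers 3 higher of 5, and atrial markers 1 higher of 4 tested, which was Myl4. Of all genes 53.1% were called higher and 24.2% lower at 72 h. The other scalings moved the calls over all genes at 72 h, which were 7081 higher and 3226 lower as deposited. Median-of-ratios scaling gave 5243 and 4752, and quantile normalization 4387 and 5709. After median-of-ratios scaling endothelial markers had 0 higher and 6 lower, and after quantile normalization 0 and 5. Smooth muscle and pericyte markers had 2 higher and 5 lower under each. Myl4 was not called after either, with adjusted p of 0.256 and 0.119, and quantile normalization gave 1 atrial and 1 epicardial or mesothelial marker called lower.

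Set against the cardiomyocyte markers of the same library, the 10 genes looked different. The mean log2(FPKM + 1) of the 12 markers was subtracted from every gene in each mouse, and the same test was run. On this relative scale 0, 0, 3, 7 and 9 of 10 genes were called higher at 10 min, 1 h, 6 h, 24 h and 72 h, beside 0.24%, 0.728%, 18.7%, 75.5% and 96.5% of all genes, and 0 were called lower at any time, beside 0.0675%, 0.06%, 5.87%, 0.93% and 0.42%. At an unadjusted p under 0.05 limma had 0, 0, 3, 0 and 0 of 10 lower, beside 3.84%, 4.37%, 10.5%, 1.06% and 0.42% of all genes. The counts at 24 h and 72 h are thus close to the share of all genes. Every gene of a mouse had the same marker mean subtracted, so all genes share the spread of that mean between mice. The fit takes the genes as independent, so its intervals and p-values on this scale are too sure for 3 against 3 mice. Tbx20 was 2.26 higher at 72 h, with a 95% interval of 1.92 to 2.60 in a fit whose spread is pooled over all genes, Srf was 1.57 higher and Nkx2-5 0.86 higher. The subtraction moved the difference of every gene by the same amount, so these values include the fall of the markers. As deposited Tbx20, at 0.67, lay above the median of all genes, 0.29. Srf, at -0.02, and Nkx2-5, at -0.73, lay below it, and the subtraction leaves that order unchanged.

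Tbx5 was the 1 gene of the 10 not called on the relative scale at 72 h. Its relative level was -8.27 ± 0.03 (SD, n = 3) in sham and -8.13 ± 0.12 at 72 h, a difference of 0.15 with an interval from -0.23 to 0.53 and an adjusted p of 0.446. The sign changed with a reference of Tnnt2, Atp2a2 and Actn2, which gave -0.14, and with a pseudocount of 0.1, which gave -0.03, and neither was called. Without the first 72 h mouse it was 0.21 and called, with an adjusted p of 0.0363, which is too sure for the reason given above. At 6 h the 3 genes called higher on this scale were Hand2 at 1.01, Gata6 at 0.46 and Tbx5 at 0.30. Without the first 6 h mouse Hand2 was at 1.00 and Gata6 at 0.44, with adjusted p of 0.00180 and 0.0469, and Tbx5 at 0.25 was not called, with 0.0903. Gata6 was lost in 6 of 10 alternatives, with an adjusted p of up to 0.0865, among them those without any 1 of the sham mice or the third 6 h mouse. Tbx5, with an adjusted p of 0.0496, was lost in 8 of 10, with an adjusted p of up to 0.271, among them those without any 1 of the sham mice or the first or second 6 h mouse.

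**Figure D4:**
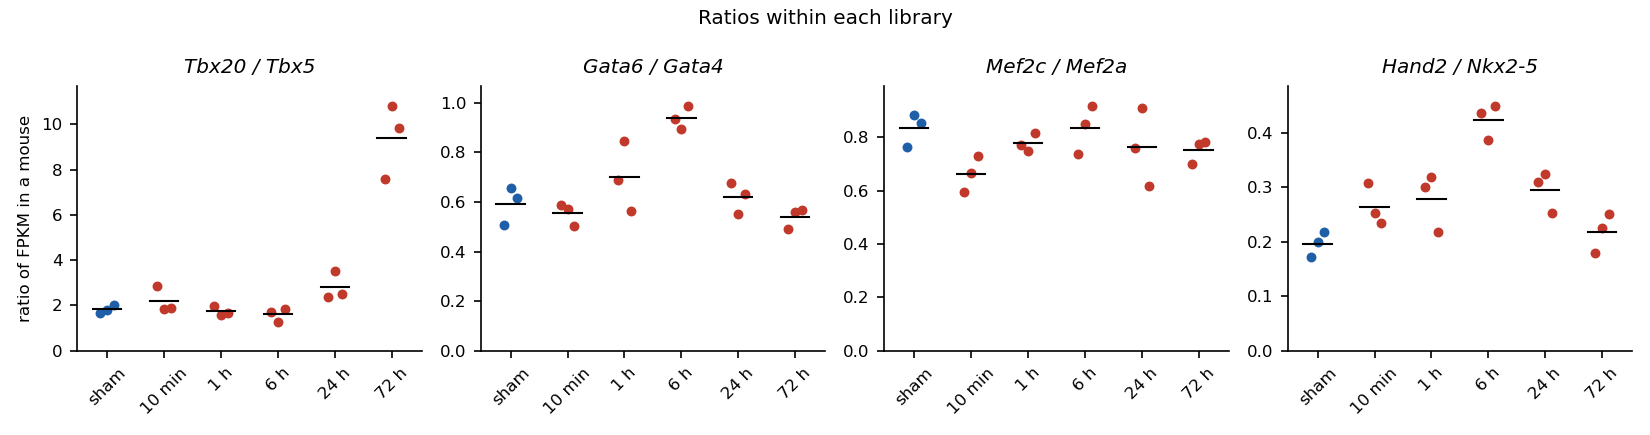
Ratio of the FPKM of a pair of the genes within each mouse (blue points sham, red points AMI, 3 mice a group, horizontal bar the mean), for sham and the 5 times of AMI. Tbx20 over Tbx5 rises from 1.85 in sham to 9.42 at 72 h, and Gata6 over Gata4 and Hand2 over Nkx2-5 are highest at 6 h, with 0.939 and 0.424.

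Other transcription factors of the heart were mostly lower at 72 h too. Of 16 such genes, 12 passed the filter, 8 of which were called lower and 2 of which were called higher at 72 h, beside 24.2% and 53.1% of all genes, with a median log2 difference of -0.64. The other scalings, median-of-ratios and quantile normalization, each gave 10 lower and 1 higher, with medians of -0.89 and -1.05. Over all genes they called 4752 and 5709 lower, against 3226 as deposited, and 5243 and 4387 higher, against 7081. The largest falls were those of Hopx at -1.69 ± 0.17, a homeodomain protein that counters SRF, of Irx4 at -1.26 ± 0.11, the Iroquois factor of the ventricle, and of Tbx3 at -0.84 ± 0.09, a T-box repressor of the conduction system. Tbx18, a T-box gene of the epicardium, rose from 1.86 ± 0.288 to 5.48 ± 0.872 FPKM, a log2 difference of 1.175. Gata5 was called higher at 0.57 ± 0.22 with an adjusted p of 0.0397, but its mean was 0.882 FPKM at 72 h with an SD of 0.693, and it was not called after either other scaling. At 6 h this list had 1 gene called higher and 3 lower, beside 11.6% and 16.8% of all genes, and at 24 h 1 called lower, beside 11.4%.

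Cofactors and regulators of the 10 proteins were called in both directions. Of 16, 8 were called lower and 2 higher at 72 h, beside 24.2% and 53.1% of all genes, with a median log2 difference of -0.18. Median-of-ratios scaling gave 13 lower and 2 higher with a median of -0.46, and quantile normalization 12 and 2 with -0.65. The calls lower over all genes rose as well, from 3226 to 4752 and 5709. Smyd1, a muscle methyltransferase, fell from 163 ± 4.71 to 76.4 ± 7.05 FPKM, and Fhl2, a LIM protein of muscle, from 946 ± 31.4 to 514 ± 47.0. Myocd, the myocardin that acts with SRF in heart and smooth muscle, fell by 0.53 on the log2 scale. Mkl1, the related cofactor that carries actin signals to SRF, rose from 2.77 ± 0.137 to 8.68 ± 0.745 FPKM, a log2 difference of 1.36 ± 0.08 with an adjusted p of 1.37e-06. Hexim1, an inhibitor of the elongation factor P-TEFb, rose by 0.65. At 6 h 2 of the 16 were called higher and 4 lower, beside 11.6% and 16.8% of all genes, and at 24 h 1 and 1, beside 26.2% and 11.4%.

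Known targets in heart muscle were called lower in 14 of 22 cases at 72 h and higher in 5, beside 24.2% and 53.1% of all genes, with a median log2 difference of -0.90. The largest falls were those of Ckm, muscle creatine kinase, at -2.16 ± 0.18, of Myl2 at -2.04 ± 0.16 and of Myl3 at -1.95 ± 0.20, the ventricular myosin light chains. The natriuretic peptide genes went the other way. Nppa rose by 2.46 ± 0.27, from 343 ± 139.7 to 1793 ± 208 FPKM, and Nppb by 1.84 ± 0.11, from 66.4 ± 6.99 to 241 ± 30.4. Slc8a1, the sodium-calcium exchanger, was called higher at 0.75 ± 0.27 with an adjusted p of 0.0330 and was not called after either other scaling. Median-of-ratios scaling gave 2 of 22 higher and 16 lower, beside 5243 and 4752 of all genes. Quantile normalization gave 2 and 12 of 21, beside 4387 and 5709 of all genes. Several of these targets also stand in the list of cardiomyocyte markers, so the 2 lists are not independent.

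SRF targets of the cytoskeleton and of the early response were called higher in 14 of 14 cases at 72 h, beside 53.1% of all genes, with a median log2 difference of 1.65. Ctgf, a matricellular growth factor, rose by 3.10 ± 0.11, Actb, cytoplasmic actin, by 2.63 ± 0.12, and Tpm4, a tropomyosin of non-muscle cells, by 2.24 ± 0.10. After either other scaling 13 of 14 were called higher, beside 5243 of all genes for median-of-ratios and 4387 for quantile normalization, against 7081 as deposited. At 6 h 8 were called higher, beside 11.6% of all genes, and at 24 h 9, beside 26.2%, with 1 called lower, beside 11.4%. Fos, an early response gene, was highest at 1 h, at 67.0 ± 17.8 FPKM against 0.530 ± 0.171 in sham. Acta2 and Tagln of this list are also smooth muscle markers, and fibroblasts and leukocytes, whose markers rose at 72 h, express several of the others. Their part in the result was not tested.

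For 9 of the 10 genes the 2 tested genes with the smallest root mean square difference in their 5 log2 differences from sham were looked up among 12396 genes. All 5 comparisons share the sham mice. Tbx20 lay nearest to Smad3, at 0.0301, and to Wdfy3, and Mef2a to Katnal1, at 0.0235, and Phactr2. Tbx5 lay nearest to D10Jhu81e, at 0.0586, and to Sdha, a subunit of succinate dehydrogenase, at 0.0663, which was at -1.40 at 72 h. Nkx2-5 lay nearest to Cuedc1 and Phospho1, Gata4 to Bicd2 and Dpf2, Mef2c to Ptdss2 and Ankrd24, Mef2d to Clip4 and Gphn, and Srf to Slk and Irf2bp1. Hand2 had the most distant neighbours of these 9, Ddn at 0.191 and Gfod1 at 0.214.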

How the data were processed

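The authors sequenced poly-A RNA from the left ventricles of 18 mice, 3 in each group. Per the labels and methods, reads were trimmed with cutadapt 1.18, mapped to mm10 with HISAT2 2.1.0 and quantified with StringTie 1.3.4d, and the deposited FPKM per gene and mouse were used without further scaling. The annotation is not given in the sources used here. Groups came from the sample titles. Genes that reached an FPKM of 1 in any mouse were compared on log2(FPKM + 1) with limma 3.58.1 in R 4.3.3 (lmFit, eBayes with trend, two-sided), each comparison on its own 6 mice, and p-values were adjusted by Benjamini-Hochberg across the genes tested. The authors' cufflinks test needs the reads and was not repeated. Differences on the log2(FPKM + 1) scale understate changes of low genes. The table gives no counts, so precision comes from the spread between 3 mice.

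Named were the 10 genes, of each list of other cardiac transcription factors, cofactors, heart muscle targets and SRF targets the 3 largest called rises and falls at 72 h, the marker genes, and the 2 nearest genes of each member, which for Gata6 are not reported here. Fos was added after its values were seen, and so were the ratios. The members and lists were chosen with earlier results of these data known. Marker sums were compared by exact permutation tests. Sequences came from RefSeq and positions and overlaps from GENCODE release M21. Python 3.11.15 with pandas 2.3.3 was used for the rest. The fit was tested on simulated data. The alternatives were 2 scalings, a pseudocount of 0.1, other filters, a joint fit of all 18 mice, a replicate block, no variance trend, another marker reference and leaving out each mouse.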

Additional observations from a re-analysis of the deposited data

Results flagged for a closer look

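The results listed here are genes that lay on opposite sides of sham at consecutive times, with the direct comparison of those times called by limma. Between 1 h and 6 h, Gata4 went from 0.10 to -0.38 on the log2 scale against sham, a difference of -0.49 with an adjusted p of 0.0140, and Mef2a from 0.03 to -0.46, a difference of -0.49 with an adjusted p of 0.0122. Between 6 h and 24 h, Gata4 went from -0.38 to 0.18, a difference of 0.56 with an adjusted p of 0.0293. Of these 3 calls, Gata4 from 1 h to 6 h was lost without the first or the third 1 h mouse, with an adjusted p of up to 0.0554, Mef2a without the second 1 h mouse, with 0.0621, and Gata4 from 6 h to 24 h in 7 of 14 alternatives, with an adjusted p of up to 0.145. Between 24 h and 72 h, 5 genes crossed from above to below sham. Gata4 differed by -0.44 with an adjusted p of 0.0123, Gata6 by -0.63 with 0.00146, Nkx2-5 by -0.96 with 0.00137, Mef2d by -0.48 with 0.00860 and Hand2 by -1.35 with 0.000830. Of these 5, Hand2 was also called against sham at 24 h, and the other 4 were not. Without the third 72 h mouse the Gata4 difference from 24 h to 72 h was not called, with an adjusted p of 0.0585.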

How the results depend on the processing

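Of 140 differences fitted for the 10 genes, 40 changed sign under at least 1 alternative, and 0 of these were called as deposited. The calls at 72 h against sham held under every alternative run for the 9 genes called. Median-of-ratios scaling gave 2 genes called higher at 6 h, Gata6 joining with 0.37, 3 lower at 24 h, 0 higher from 6 h to 24 h and 0 higher from 24 h to 72 h, and it turned Mef2a from 6 h to 24 h to -0.038. Quantile normalization gave 3 lower at 24 h and 0 higher from 6 h to 24 h. The calls over all genes moved too. Median-of-ratios scaling took those higher at 6 h from 1543 to 1977 and those higher from 24 h to 72 h from 3963 to 3144. Those lower at 24 h went from 1516 to 2317, and to 2692 after quantile normalization. Those higher from 6 h to 24 h went from 1664 to 403, and to 371 after quantile normalization. With all 18 mice in one fit, 3 were lower at 24 h, 5 lower from 1 h to 6 h, and 3 higher and 1 lower from 6 h to 24 h. A pseudocount of 0.1 and a minimum of 1 on the mean FPKM each gave 2 higher from 6 h to 24 h. Replicate numbers were not taken as pairs, since in no comparison did all 3 same-numbered deviations correlate above 0.1. The replicate block gave 0 lower at 24 h, 0 higher from 6 h to 24 h and 1 higher at 6 h relative to the markers. With the reference of Tnnt2, Atp2a2 and Actn2, 1 gene was higher and 3 lower at 6 h, and Tbx5 at 72 h was -0.14, while a pseudocount of 0.1 gave it -0.033. Leaving out 1 mouse at a time gave 0 to 1 higher at 1 h, 1 to 4 lower at 6 h, 0 to 2 higher and 0 to 2 lower at 24 h, 1 to 3 lower from 1 h to 6 h, 0 to 1 higher and 0 to 1 lower from 6 h to 24 h, and 0 to 1 higher from 24 h to 72 h. Relative to the markers it gave 0 to 1 higher at 1 h, and 1 to 2 higher and 0 to 1 lower at 6 h. Srf at 72 h ranged from -0.071 to 0.038, the latter without the third sham mouse. The causes were not tested. For the alternatives other than the 2 scalings the calls over all genes are not given here. Their counts therefore cannot be set against a share of all genes. With 3 mice a group, small differences such as those at 10 min and 1 h could not be resolved.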

Other observations

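The natriuretic peptide genes are targets of several of the 10 factors. Nppb, which encodes BNP, was at 66.4 ± 6.99 FPKM in sham and 63.9 ± 21.04 at 1 h, and it was called higher by limma at 6 h, with a log2 difference of 2.55 and an adjusted p of 0.00485, and at 24 h, with 2.59 and 0.000326. Nppa, which encodes ANP, was at 343 ± 139.7 FPKM in sham and 570.3 ± 300.0 at 6 h, a difference of 0.65 with an adjusted p of 0.316, and it was called higher at 24 h, with 2.45 and 0.00413. All 6 h values in this paragraph include the first 6 h mouse, which held atrial transcripts, and are not given without it. Irx4, a ventricular transcription factor outside the 10, was called lower already at 10 min, at 15.5 ± 0.504 FPKM against 21.3 ± 0.107 in sham, a log2 difference of -0.44 with an adjusted p of 0.0369. At 1 h it was at 16.9 ± 2.74 FPKM and not called, at 6 h it was lower by limma with -0.97, and at 24 h it was at 15.6 ± 4.90 FPKM and not called. Hopx was at 151 ± 10.2 FPKM at 6 h, not called, and was lower at 24 h with -0.95 and an adjusted p of 0.0161. These genes and times were picked after their values had been seen, and whether the times differ between the genes was not tested.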
